A study of Rattus norvegicus with 4 samples.

Results

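The genes described here encode RING finger, TRIM and F-box proteins, the parts of the ubiquitin system that choose which protein is marked. They were chosen by name: every gene whose single annotated symbol starts with Rnf, Trim, Fbxo, Fbxl or Fbxw and a number, or is Skp2. The rule found 146 of the 12922 genes measured, made up of 64 Rnf, 32 Trim, 30 Fbxo, 12 Fbxl and 8 Fbxw genes. Skp2 was not analysed here. A gene was read from its brightest probe set, the one with the highest mean intensity over the 4 arrays.

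RNA came from smooth muscle cells of the rat aorta, which contract the vessel wall, in a study that looked for early genes of phenotypic modulation, in which these cells lose contractile features. All cells were plated in 10% fetal bovine serum for 24 h and then kept for 72 h without serum and insulin. Of the 4 Affymetrix arrays, 2 held RNA of cells given 30 ng/mL PDGF-BB (platelet-derived growth factor BB, a mitogen of smooth muscle) for 3 h, and 2 held RNA of cells given the vehicle, acetic acid at 10 mM with 0.2% BSA, for the same time. The labels do not state separate cultures, so a p-value here measures the spread between these arrays, which may be technical, and the small number of arrays limits the precision of every value.

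The PDGF-BB arrays had medians of 144 and 132 over all probe sets, and the vehicle arrays 145 and 148. As a rough mark of background, the brightest of 27 Bacillus control probe sets reached 80.3; the table holds no detection calls. All 7 smooth muscle markers lay above that mark in both groups, with sums of 37183 and 36340 on the PDGF-BB arrays and 38503 and 38959 on the vehicle arrays; Lmod1, Smtn and Myh11 fell by 1.70, 0.79 and 0.70 on the log2 scale and the other 4 did not pass. The 4 endothelial markers measured were at or below it, with a summed intensity of 51.4 and 58.6 on the PDGF-BB arrays and 47.5 and 52.2 on the vehicle arrays. Of 6 macrophage and leukocyte markers, Cd14 and Lyz2 were above it and Ptprc, Cd68, Itgam and Csf1r were not; the 6 summed to 1611 and 1492 with PDGF-BB and to 1746 and 1785 with vehicle. Of 3 skeletal muscle markers measured, Ckm was above the mark, and the sums were 201 and 182 with PDGF-BB and 215 and 208 with vehicle. The part of other cell types in the results below was not tested, and in RNA from whole cultures fewer cells of a type and less RNA per cell cannot be told apart.

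Ubiquitin is passed from an E1 enzyme to an E2 enzyme and then, with the help of an E3 ligase, to a protein. RING ligases, including most TRIM proteins, bring the loaded E2 and the target together directly. F-box proteins are the exchangeable target receptors of SCF ligases, in which Skp1 and Cul1 tie the F-box protein to a RING subunit. In muscle cells the best known members are Trim63 (MuRF1) and Fbxo32 (atrogin-1), which take part in the breakdown of muscle proteins.

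More ligase genes fell than rose after 3 h of PDGF-BB. By limma with Benjamini-Hochberg adjustment over all probe sets at a threshold of 0.05, 15 of the 146 members were higher and 35 were lower, while 96 did not pass. Across all genes 12.4% were higher, 15.3% were lower and 27.7% passed in either direction. The members' shares were 10.3% higher and 24.0% lower. Both group means were at or below the background mark in 21.9% of members and 29.5% of all genes. Without these, 12.3% of members were higher and 28.9% lower, beside 16.2% and 20.2% of all genes. The median log2 fold change of all 146 members was -0.07, beside -0.03 for all genes. With array medians subtracted the counts were 26 higher and 36 lower, so that 41.9% of the calls were increases in place of 30.0%. Among all genes 52.6% of the calls were then increases in place of 44.9%. The medians were 0.01 for the members and 0.05 for all genes. Of the members, 6 were called higher and 9 lower with a fitted difference of at least 1 on the log2 scale, Trim63 among the 9 with both groups below the background mark; of all genes 4.6% were higher and 3.78% lower by that much.

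Most calls needed all 4 arrays. Leaving out either vehicle array ended 39 of the 50 calls, leaving out PDGF-BB replicate 2 ended 27 and leaving out PDGF-BB replicate 1 ended 16. Without PDGF-BB replicate 2 the balance turned, with more members higher than lower. Without that array or either vehicle array, calls shifted towards increases among the members and among all genes alike. Without PDGF-BB replicate 1 both shifted towards decreases. Without PDGF-BB replicate 2 the median log2 fold change was -0.05 for the members and -0.02 for all genes. It was -0.12 and -0.03 without vehicle replicate 1, and -0.07 and -0.04 without vehicle replicate 2. The members past the threshold in all 14 alternatives tried were Trim47, Trim16, Trim8, Trim36 and Rnf149 among the higher, and Trim34, Rnf167, Fbxl8, Fbxl22, Rnf166 and, as a description only, Rnf122 among the lower. In 105 members the groups did not overlap, 40 with both PDGF-BB arrays above both vehicle arrays and 65 with both below. The share of 71.9% stands beside 67.5% of all genes, 29.7% above and 37.8% below. In 55 of the 105 members the difference did not pass limma's threshold. Members called with at least 2-fold changes were named by a rule that required groups without overlap. Lack of overlap is therefore no separate support for them.

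**Figure D1:**
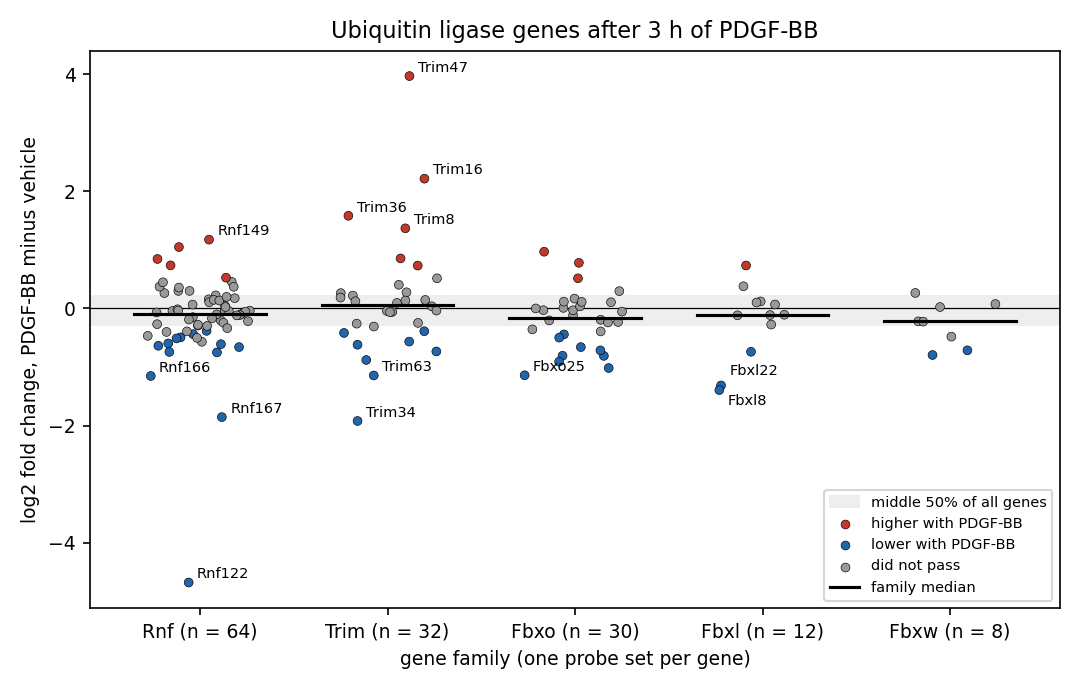
Log2 fold change (PDGF-BB minus vehicle) of each of the 146 ligase genes, by family, with the family median as a black line, genes past limma's threshold in red (higher) or blue (lower), and the middle 50% of all genes as a grey band. Trim47 stands highest at 3.97 and Rnf122 lowest at -4.68, while the family medians lie between -0.22 and 0.07.

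The families differed in their counts, and no test compared them with each other. Of 64 Rnf genes 5 were higher and 13 lower, with a median log2 fold change of -0.10. Their called share of 28.1% in either direction was close to the 27.7% of all genes. By direction, 7.81% of the Rnf genes were higher and 20.3% lower, beside 12.4% and 15.3% of all genes. Of 32 Trim genes 6 were higher and 8 lower (43.8% called), and the median was 0.07. The F-box genes gave 4 higher and 14 lower of 50 (36% called). Within them, 3 of 30 Fbxo genes were higher and 9 lower (median -0.16), 1 of 12 Fbxl genes was higher and 3 were lower (median -0.11), and 0 of 8 Fbxw genes were higher and 2 lower (median -0.22). The called share of the Fbxw genes lay below the 27.7% of all genes. The sign of the family medians was the same with array medians subtracted, quantile normalization and cyclic loess. Without PDGF-BB replicate 2 the Fbxl median was 0.03.

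Rnf122 encodes a small RING ligase with a membrane-spanning stretch. It was singled out because it has the largest decrease of all 12922 genes, so its values are given as a description without a test. Its intensity was 19.6 and 38.0 on the PDGF-BB arrays and 1104 and 1114 on the vehicle arrays. Both PDGF-BB arrays were below the background mark and both vehicle arrays far above it, so the decrease is at least 13.8-fold. The log2 fold change was -4.68 (SE 0.22) with 16 added to each intensity before the log, -5.29 with 1 added and -3.67 with 64 added. Rnf122 has 1 probe set here. After Rnf122, the next largest decrease among the Rnf genes was that of Rnf167 at -1.86.

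Among the RING ligases that sit in membranes with a protease-associated domain facing away from the cytosol, 2 of 5 passed, in opposite directions, beside 27.7% of all genes in either. Rnf149 had an intensity of 2762 and 2744 on the PDGF-BB arrays and 1171 and 1250 on the vehicle arrays. The groups were far apart and each pair lay close together, and Rnf149 rose by 1.18 on the log2 scale (SE 0.09, limma adjusted p 0.00336). Its other probe set was below the background mark in both groups, so no fold is given; it was called higher as well (adjusted p 0.0330). Rnf167, a ligase of endosomes and lysosomes, gave 98.1 and 79.9 with PDGF-BB and 350 and 376 with vehicle. The PDGF-BB arrays lay on either side of the background mark, and Rnf167 fell by 1.86 on the log2 scale (SE 0.12, adjusted p 0.00247). Rnf13 did not pass, with a log2 fold change of -0.22. Rnf128 and Rnf130 did not pass either, with log2 differences of 0.04 and -0.01. Both were below the background mark in both groups, so a missing call says little for them.

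Rnf166, a RING ligase with a ubiquitin-binding motif, had intensities of 426 and 402 with PDGF-BB and 938 and 944 with vehicle. The groups did not overlap and the vehicle arrays were nearly equal. Rnf166 fell by 1.15 on the log2 scale (SE 0.09, adjusted p 0.00339). Its relatives Rnf114, Rnf125 and Rnf138 did not pass, with log2 fold changes of -0.29, -0.15 and 0.22. Of these, Rnf125 was below the background mark in both groups.

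The RNA of Rnf167 and Rnf166 fell most among the Rnf genes with a promoter window at hand, so both windows are shown. RefSeq windows of 300 bases around the start of transcription (GRCr8) were matched for 121 of the 146 members; Rnf122 and Fbxl8 were not matched. They were searched on both strands for the FOXO motif GTAAACA, the E-box CACGTG, the AP-1 motif TGANTCA, the cyclic AMP response element TGACGTCA and the serum response element, and none of these motifs contains another. The Rnf167 window, chr10:55859004-55859303 on the plus strand, holds an AP-1 match beginning 54 bases before the start, and the Rnf166 window, chr19:67447765-67448064 on the minus strand, a cyclic AMP response element beginning 92 bases before it. Capitals mark these matches.
Rnf167: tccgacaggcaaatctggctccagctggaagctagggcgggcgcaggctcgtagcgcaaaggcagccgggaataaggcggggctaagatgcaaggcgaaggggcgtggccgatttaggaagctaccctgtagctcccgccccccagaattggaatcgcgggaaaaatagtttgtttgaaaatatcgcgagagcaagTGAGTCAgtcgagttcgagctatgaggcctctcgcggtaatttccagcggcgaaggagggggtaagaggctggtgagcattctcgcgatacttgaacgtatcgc
Rnf166: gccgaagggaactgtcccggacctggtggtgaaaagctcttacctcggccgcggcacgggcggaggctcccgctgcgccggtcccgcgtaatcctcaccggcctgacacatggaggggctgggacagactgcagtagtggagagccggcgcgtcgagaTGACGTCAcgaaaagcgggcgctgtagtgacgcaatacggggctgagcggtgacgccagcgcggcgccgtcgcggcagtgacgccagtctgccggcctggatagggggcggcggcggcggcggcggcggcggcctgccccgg

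An AP-1 match was found in 7.33% and a cyclic AMP response element in 1.83% of all 33469 windows, and in 5.61% and 2.73% of the 11933 windows of measured genes. Among 27 windows of lower members, 3 held an AP-1 match, 2 a cyclic AMP response element, 3 an E-box, 2 a FOXO motif and 1 a serum response element. The 14 windows of higher members held 0 of each. Windows of higher members had a median GC content of 65.8%, those of lower members 57.7% and those of all measured genes 59.7%. A match describes these letters only and says nothing of whether a factor binds there.

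RBR ligases pass ubiquitin through a bond to themselves. Of 7 with an Rnf name, 2 were higher and 0 lower, a called share of 28.6% beside 27.7% of all genes. Outside the naming rule, the RBR genes Arih1 and Arih2 rose by 0.74 and 0.45 on the log2 scale, and Rbck1 fell by 0.57. Rnf144b, a p53 target in human cells, had 212 and 181 with PDGF-BB and 78.6 and 94.4 with vehicle. Its vehicle arrays lay on either side of the background mark, and its increase of 1.05 on the log2 scale (SE 0.13, adjusted p 0.0101) lost its call without PDGF-BB replicate 1 or either vehicle array. Rnf19b had 109 and 103 with PDGF-BB and 53.3 and 61.6 with vehicle, below the mark, so its called increase (adjusted p 0.0127) is at least 1.32-fold. Rnf31, the catalytic subunit of the linear ubiquitin assembly complex, had a log2 fold change of -0.04. Rnf14, a coactivator of the androgen receptor, had -0.47 with an adjusted p of 0.0501.

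The near-identical genes Rnf113a1 and Rnf113a2, whose protein belongs to the spliceosome in human cells, were called in opposite directions. Rnf113a1 had 432 and 327 with PDGF-BB and 193 and 211 with vehicle, a rise of 0.85 on the log2 scale (SE 0.16, adjusted p 0.0264). Rnf113a2 had 225 and 218 with PDGF-BB and 310 and 302 with vehicle, and fell by 0.44 (SE 0.09, adjusted p 0.0295). Neither pair of groups overlapped. How far the probes of each read the other transcript was not tested, and neither call held without either vehicle array.

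The remaining Rnf calls were smaller. Rnf6 rose by 0.53. Of 7 ligases of the endoplasmic reticulum, Rnf26, Rnf145 and Rnf170 fell by 0.61, 0.49 and 0.75, and Rnf5, Rnf121, Rnf139 and Rnf185 did not pass; 3 lower of 7 stand beside 15.3% of all genes. Rnf181 fell by 0.74, and its other probe set by 0.56. Rnf220, Rnf32, Rnf44, Rnf34 and Rnf39 fell by 0.38 to 0.66, with both groups of Rnf32 below the background mark. Rnf39 was called in only 4 and Rnf32 in 7 of the 14 alternatives, and both lost their calls with array medians subtracted. All 5 RING ligases of chromatin and the DNA damage response, Rnf2, Rnf8, Rnf20, Rnf168 and Rnf169, failed to pass, with log2 fold changes of -0.39 to 0.18. The SUMO-targeted ligases Rnf4 and Rnf111 were at 0.30 and 0.46 without passing, and 1 of the other probe sets of Rnf4 was higher at 0.63. These role groups were put together after values had been seen.

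Several RING genes with well-known roles did not pass. Rnf7, a RING subunit of cullin ligases, had 1839 and 1791 with PDGF-BB and 1598 and 1562 with vehicle, a log2 fold change of 0.20 (95% interval -0.03 to 0.43, adjusted p 0.178). It passed with an intensity trend in the variance (adjusted p 0.0382). Rnf41, a ligase for ErbB receptors, had -0.17 (interval -0.49 to 0.15), and 0.05 with its probe sets averaged. Rnf10, among the 3 brightest members, had -0.07 (interval -0.30 to 0.17).

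**Figure D2:**
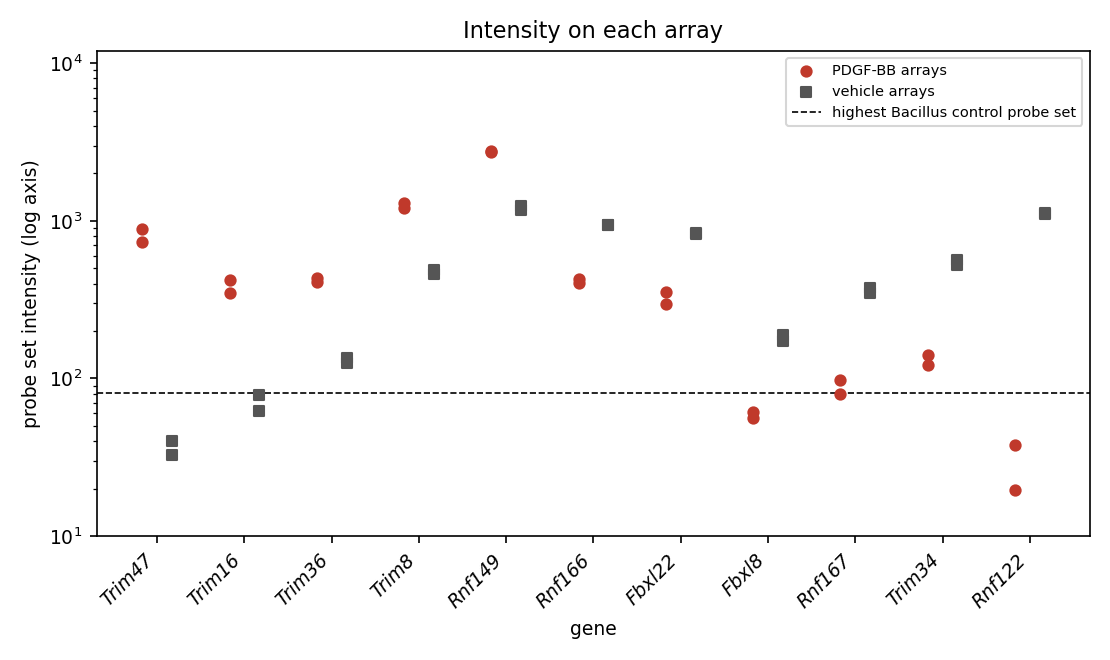
Intensity on each array (log axis) of the 10 ligase genes called in all 14 alternatives and of Rnf122, shown as a description, with PDGF-BB arrays as red circles left of the vehicle arrays as grey squares, and the background mark as a dashed line. The groups of the 10 genes do not overlap, and the PDGF-BB arrays of Rnf122 and Fbxl8 and the vehicle arrays of Trim47 and Trim16 lie below the mark, as does 1 PDGF-BB array of Rnf167.

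By brightest probe sets, the largest increase of the 146 genes was that of Trim47, a TRIM protein with a RING domain. Its brightest probe set read 882 and 732 on the PDGF-BB arrays and 40.3 and 32.6 on the vehicle arrays. The vehicle arrays were below the background mark, which makes the increase at least 10.0-fold, and the fitted log2 fold change was 3.97 (SE 0.14, adjusted p 0.00071). The other probe set gave a smaller increase, with 227 and 252 on the PDGF-BB arrays and 145 and 168 on the vehicle arrays, or 0.57 on the log2 scale (SE 0.12, adjusted p 0.0318). Both called the same direction while differing widely in size. Ranked by the mean of log2 values in place of intensity, the other probe set represents the gene, and Trim16 then has the largest increase of the members. Its promoter window, chr10:101840887-101841186 on the minus strand, is shown because of the size of this increase; none of the searched motifs was found in it and no letters are in capitals.
Trim47: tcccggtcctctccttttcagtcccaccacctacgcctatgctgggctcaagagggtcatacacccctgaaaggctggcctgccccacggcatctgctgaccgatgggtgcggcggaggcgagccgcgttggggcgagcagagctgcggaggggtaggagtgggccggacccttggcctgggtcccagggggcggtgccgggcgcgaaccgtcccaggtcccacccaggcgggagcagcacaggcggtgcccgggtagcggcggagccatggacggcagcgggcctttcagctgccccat

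Trim16, a TRIM protein of the response to damaged lysosomes, had 422 and 348 with PDGF-BB and 62.3 and 78.3 with vehicle. The vehicle arrays were again below the background mark, and the intensities give an increase of at least 4.77-fold. The fit with 16 added, which understates dim genes, gave 2.22 on the log2 scale (SE 0.15, adjusted p 0.00265). Trim36, which binds microtubules, had 437 and 407 with PDGF-BB and 135 and 125 with vehicle, and rose by 1.58 (SE 0.10, adjusted p 0.00212). Trim8, a regulator of cytokine signalling, had 1303 and 1201 with PDGF-BB and 488 and 462 with vehicle, and rose by 1.37 (SE 0.10, adjusted p 0.00274). In all 3 genes the groups did not overlap, and the arrays of a group lay closer together for Trim36 and Trim8 than for Trim16.

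The other Trim increases were smaller. Trim24, a TIF1 protein that binds nuclear receptors, rose by 0.85 (SE 0.13, adjusted p 0.0150), whereas its relatives Trim28 and Trim33 did not pass. Trim28, the corepressor of KRAB zinc-finger proteins and 1 of the 3 brightest members, had 2736 and 2676 with PDGF-BB and 3336 and 3096 with vehicle (log2 fold change -0.25, 95% interval -0.49 to 0.00, adjusted p 0.132). It passed with an intensity trend in the variance and with quantile normalization. Trim27 (RET finger protein) rose by 0.73 (SE 0.09, adjusted p 0.00941). Trim26 had a log2 fold change of 0.51 without passing (adjusted p 0.0548), and its other probe set was higher at 0.69. Trim35, the brightest member, had 0.14; it passed with the intensity trend (adjusted p 0.0464) and had a difference near 0 with quantile normalization.

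Trim34, which belongs to the interferon-inducible TRIM cluster with Trim5 and Trim6 in human cells, had 141 and 122 with PDGF-BB and 561 and 526 with vehicle. All arrays were above the background mark and the groups lay far apart. Trim34 fell by 1.92 on the log2 scale (SE 0.11, adjusted p 0.00173), the largest decrease among the brightest probe sets of the members after that of Rnf122. In the RefSeq gene table of the rat Trim6, Trim34 and Trim5 follow each other with 0 genes between them. Trim5, the antiviral capsid-binding factor of primates, fell by 0.62 (SE 0.09, adjusted p 0.0126), and Trim6 was below the mark in both groups with a log2 fold change of 0.19.

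Trim63, the muscle ligase MuRF1, was dim. It had 12.3 and 16.4 with PDGF-BB and 50.8 and 51.0 with vehicle, all below the background mark, so no fold is given. The PDGF-BB arrays were nonetheless both lower, and the test passed (log2 difference -1.14, adjusted p 0.00507); without vehicle replicate 1 or 2 the adjusted p was 0.0518 or 0.0505. The related Trim54, also below the mark in both groups, had a log2 difference of -0.06. Fbxo32, the other muscle atrophy ligase, had 8.73 and 10.9 with PDGF-BB and 11.8 and 16.95 with vehicle (log2 difference -0.23, adjusted p 0.259). Both genes were within background in these cells. FOXO factors are known to activate both genes in wasting muscle, and the Trim63 window, chr5:151816986-151817285 on the plus strand, holds a FOXO match beginning 205 bases before the start, shown in capitals; FOXO matches occur in 3.78% of all windows and 2.62% of those of measured genes.
Trim63: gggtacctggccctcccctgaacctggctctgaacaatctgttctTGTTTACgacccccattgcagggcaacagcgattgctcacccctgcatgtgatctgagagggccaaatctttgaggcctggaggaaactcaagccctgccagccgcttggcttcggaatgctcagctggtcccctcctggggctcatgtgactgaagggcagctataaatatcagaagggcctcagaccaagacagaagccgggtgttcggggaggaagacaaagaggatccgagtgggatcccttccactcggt

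Other Trim genes that fell were Trim37 by 0.88 (SE 0.09, adjusted p 0.00588), Trim2 by 0.73, Trim59 by 0.57, Trim32 by 0.42 and Trim41 by 0.39. Trim37 is a ligase of peroxisomes and centrosomes. Both probe sets of Trim2 were lower, and 1 of the 2 of Trim41. None of these calls held without either vehicle array.

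Among the leucine-rich F-box genes the decreases were led by Fbxl8 and Fbxl22. Fbxl8 had 61.5 and 56.0 with PDGF-BB and 188 and 173 with vehicle. The PDGF-BB arrays were below the background mark, and the decrease was at least 2.25-fold, with a fitted log2 fold change of -1.39 (SE 0.10, adjusted p 0.00273). Its other probe set was at least 1.68-fold lower (adjusted p 0.00512). Fbxl22, an F-box protein of the sarcomere in mouse heart muscle, had 355 and 296 with PDGF-BB and 839 and 822 with vehicle, and fell by 1.32 (SE 0.12, adjusted p 0.00485). All arrays were above the mark and the groups did not overlap. Its window, chr8:75971665-75971964 on the minus strand, holds a serum response element beginning 204 bases before the start and an E-box after the start, in capitals; the 2 motifs occur in 1.64% and 6.42% of all windows and in 1.38% and 8.63% of those of measured genes.
Fbxl22: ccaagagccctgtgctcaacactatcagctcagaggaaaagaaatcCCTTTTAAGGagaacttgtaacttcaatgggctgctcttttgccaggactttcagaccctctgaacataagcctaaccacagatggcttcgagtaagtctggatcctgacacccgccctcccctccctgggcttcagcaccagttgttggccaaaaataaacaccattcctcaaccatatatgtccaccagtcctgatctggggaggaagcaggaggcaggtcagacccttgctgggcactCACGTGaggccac

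Fbxl6 fell by 0.74 (SE 0.10, adjusted p 0.0104). Fbxl14, whose targets include Snail, had 667 and 577 with PDGF-BB and 356 and 377 with vehicle and rose by 0.73 (SE 0.11, adjusted p 0.0154). Fbxl20 did not pass by its brightest probe set, with 387 and 447 with PDGF-BB and 506 and 507 with vehicle (log2 fold change -0.28, adjusted p 0.146). Its 3 other probe sets were all called lower, with log2 fold changes of -0.66, -2.19 and -2.27. In the last 2 the PDGF-BB arrays were below the background mark, so these decreases are at least 4.32-fold and 3.10-fold. The last read 40.8 and 37.2 with PDGF-BB and 244 and 254 with vehicle. Fbxl20 was picked out after its values were seen.

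**Figure D3:**
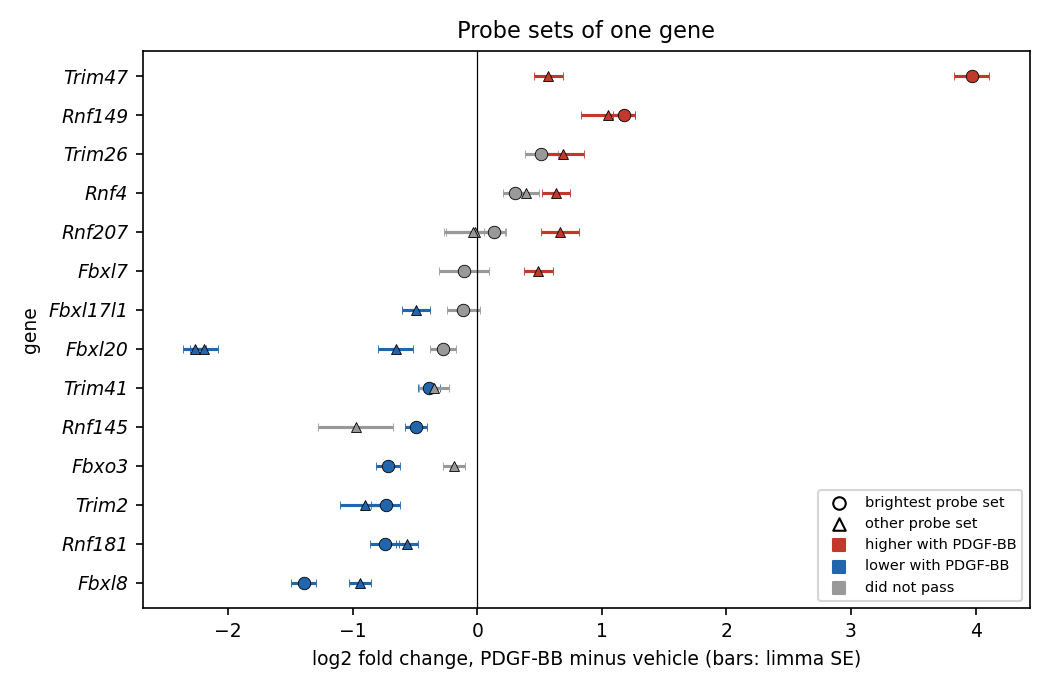
Log2 fold change (PDGF-BB minus vehicle) with limma's SE for every probe set of the ligase genes that have several probe sets and at least 1 call, with circles for the brightest probe set and triangles for the others. The triangles of Fbxl20 reach -2.27 while its circle lies at -0.28, and for Trim47 the circle is at 3.97 and the triangle at 0.57.

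In all, 36 members have several probe sets. All probe sets were called higher in 2 of them, all lower in 3 and none in 22, while some but not all were higher in 4 and lower in 5. In 0 members were probe sets called in both directions.

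Of the Fbxo genes 9 fell and 3 rose. Fbxo25 had 235 and 163 with PDGF-BB and 422 and 484 with vehicle, and fell by 1.14 on the log2 scale (SE 0.20, adjusted p 0.0206). Its PDGF-BB arrays were unequal, and the call was lost with 1 added before the log (adjusted p 0.0531). Fbxo8, which carries a Sec7 domain, had 433 and 370 with PDGF-BB and 764 and 895 with vehicle, and fell by 1.02 (SE 0.14, adjusted p 0.0112). Fbxo38 had 670 and 590 with PDGF-BB and 1215 and 1176 with vehicle, and fell by 0.91 (SE 0.10, adjusted p 0.00795). In none of the 3 did the groups overlap. Fbxo25, Fbxo8 and Fbxo38 were called in only 10, 11 and 12 of the 14 alternatives. Fbxo21, Fbxo31, Fbxo3, Fbxo10, Fbxo34 and Fbxo22 fell by 0.44 to 0.81; Fbxo34 was called in only 5 of the 14 alternatives and lost its call under each of the 3 scalings tried.

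Fbxo28 had 532 and 455 with PDGF-BB and 235 and 252 with vehicle, and rose by 0.97 (SE 0.12, adjusted p 0.00879). Fbxo27, a receptor for glycoproteins, rose by 0.51 (adjusted p 0.0408). Fbxo2, a receptor for high-mannose glycans known mainly from neurons, passed with a log2 difference of 0.78, but its arrays read 12.7 and 15.1 with PDGF-BB and 1 and 1.83 with vehicle, all far below the background mark. Fbxo5, the Emi1 inhibitor of the anaphase-promoting complex, had 489 and 443 with PDGF-BB and 412 and 452 with vehicle (log2 fold change 0.11, 95% interval -0.18 to 0.39). Its groups overlapped.

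Of the WD-repeat F-box genes with an Fbxw name, Fbxw5 fell by 0.80 (SE 0.13, adjusted p 0.0176) and Fbxw4 by 0.72 (SE 0.13, adjusted p 0.0235). Fbxw7, the receptor for cyclin E, Myc, Jun and Notch, had 155 and 123 with PDGF-BB and 154 and 175 with vehicle. The groups overlapped, and the log2 fold change of -0.22 (95% interval -0.60 to 0.16) did not pass. Fbxw11, a beta-TrCP protein that acts on phosphorylated inhibitor of NF-kappaB, had 0.26 (adjusted p 0.106). The other beta-TrCP gene, Btrc, falls outside the naming rule and rose by 0.79 (SE 0.13, adjusted p 0.0199).

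**Figure D4:**
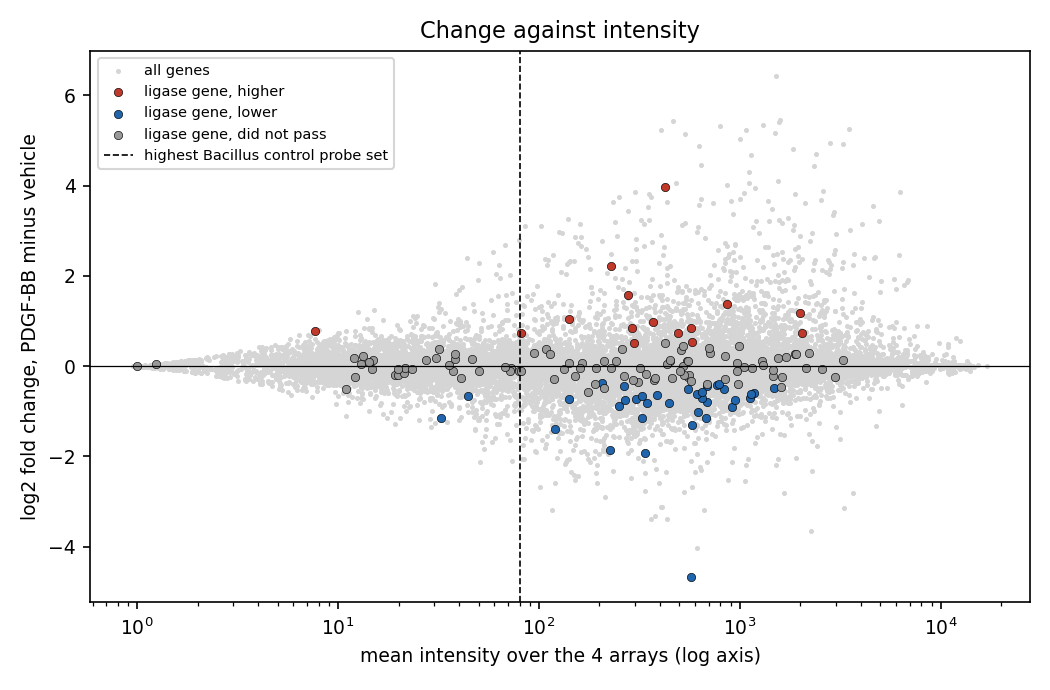
Log2 fold change (PDGF-BB minus vehicle) against mean intensity over the 4 arrays (log axis) for all genes in grey and the ligase genes in colour, with the background mark as a dashed line. Of the 146 ligase genes, 32 had both group means at or below the mark and 107 had both above it.

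Of the 32 members with both group means at or below the background mark, Fbxo2, Trim63 and Rnf32 were called. Among all 12922 genes, 3818 had both means at or below the mark. Of the 3574 genes called, 3320 were above it in either group, as were 47 of the 50 called members. Among members that did not pass, log2 fold changes ran from -0.57 (Rnf123) to 0.51 (Trim26).

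Genes that act beside these ligases were counted in the same way. Of all genes, 12.4% were higher and 15.3% lower. In each list below, at most 12.5% of the genes had both group means at or below the background mark, beside 29.5% of all genes. The nearer comparison is therefore with all genes above the mark in either group. Of those, 16.2% were higher, 20.2% lower and 36.5% called. Of 32 genes of SCF and other cullin ligase cores and of their control, largely by Nedd8, 31 were measured. Of these, 2 were higher and 4 lower (19.4% called), with a median log2 fold change of -0.08. The SCF subunits Skp1, Cul1 and Rbx1 did not pass, with log2 fold changes of -0.08, -0.0001 and -0.10. The Nedd8-conjugating enzyme Ube2f rose by 0.82, and Cks2, a cyclin-dependent kinase subunit, Dcun1d2, a neddylation factor, and the cullin Cul7 fell by 0.68, 0.73 and 0.62. Of 32 E1 and E2 genes, with Ube2f and Ube2m counted again, 6 were higher and 4 lower (31.2% called), with a median of 0.04. Ube2g2, an E2 of endoplasmic reticulum degradation, had 1786 and 1683 with PDGF-BB and 857 and 851 with vehicle and rose by 1.01 on the log2 scale, and Ube2n, the E2 for lysine 63 chains, rose by 0.78. Ube2h had 1130 and 997 with PDGF-BB and 2128 and 2201 with vehicle and fell by 1.02.

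Of 50 other RING and F-box ligases 42 were measured, with 9 higher and 7 lower (38.1% called) and a median of -0.06. This share stands beside 36.5% of all genes above the background mark in either group. Chfr, a mitotic checkpoint ligase, fell by 1.06 and Mid1, a microtubule-binding TRIM protein (TRIM18 in human), by 1.04, while Arih1 and Siah2 rose by 0.74 and 0.64. For each called gene named in these 3 lists, the call was lost in at least 1 of the 4 fits with an array left out.

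Of 29 known targets of F-box proteins 27 were measured, with 10 higher (37.0%) and 5 lower (18.5%) and a median of 0.19. For all genes these values were 12.4%, 15.3% and -0.03. For genes above the background mark in either group they were 16.2%, 20.2% and -0.06. Notch1 had 1408 and 1421 with PDGF-BB and 267 and 288 with vehicle, and rose by 2.29. Myc had 2803 and 2956 with PDGF-BB and 831 and 850 with vehicle, and rose by 1.76. Mcl1 rose by 1.65. Myod1, a muscle regulator, had 111 and 105 with PDGF-BB and 13.8 and 14.8 with vehicle, below the background mark, an increase of at least 1.35-fold. All 4 calls held whichever array was left out. Beside the 10 higher targets, the 5 lower ones were Cdkn1b, Rbl2, Bcl6, Foxo3 and Pdcd4. Their log2 fold changes were -1.36, -0.98, -0.90, -0.78 and -0.61. Of the targets of Fbxw7, whose own RNA did not pass, Jun was also higher by 1.25, read from a probe set that may match several genes. The cyclins Ccne1 and Ccne2 had -0.06 and -0.10 without passing. RNA levels say nothing of protein turnover.

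**Figure D5:**
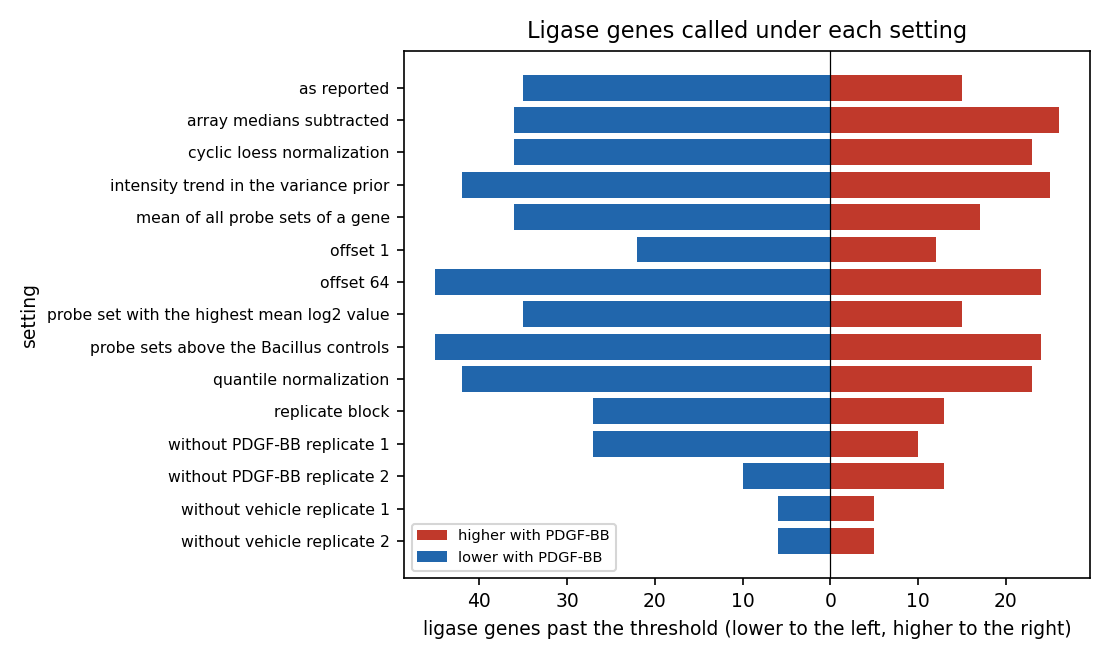
Number of ligase genes past limma's threshold under each processing setting, with lower genes drawn to the left and higher genes to the right of 0. The bars run from 11 genes without either vehicle array to 69 with 64 added before the log or with dim probe sets removed.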

How the data were processed

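The deposited table holds probe set intensities on a linear scale for 4 arrays, as the values show. Which software, background correction and scaling the authors used is not stated in the labels or files at hand. Per the labels' protocols, RNA was taken up on spin columns and labelled as biotinylated cRNA. Of 23764 probe sets, 57 controls were left out. A 2016 platform annotation gave a single symbol for 17279 of the 23707 tested.

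Values were tested as log2(intensity + 16), PDGF-BB minus vehicle, in R 4.3.3 with limma 3.58.1 (lmFit, then eBayes). Tests were two-sided and p-values were adjusted by Benjamini-Hochberg over all probe sets. The added 16 understates changes of dim genes. Intervals are 95% from the same fit.

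The members, gene lists and role groups were chosen with earlier results of these data known. Named members are those called with at least 2-fold changes and no overlap, the 3 largest called changes per family and direction, 10 fixed by name, of which 8 were measured, the 3 brightest and, per pathway list, the 4 with the smallest p; other genes were named after their values were seen. Samples were grouped by title. Same-numbered arrays had deviations from their group means that correlated at -0.10 over the probe sets. With 2 arrays per group this value cannot settle whether the numbers pair the arrays. Alternatives were the offset, scaling, a dimness filter, the variance trend, the probe set rule, a replicate block and each array left out.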

Additional observations from a re-analysis of the deposited data

How the results depend on the processing

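The count of higher members was 15 as reported and 26 with array medians subtracted, 23 with cyclic loess and 23 with quantile normalization. It was 25 with an intensity trend in the variance, 24 with 64 added before the log and 12 with 1 added. With only probe sets above the Bacillus controls 113 members were fitted, and 24 of these were higher. The count of lower members was 35 as reported, 22 with 1 added, 45 with 64 added, 45 with only probe sets above the Bacillus controls, 42 with the intensity trend, 42 with quantile normalization and 36 with medians subtracted or cyclic loess. Leaving out an array gave 5 to 13 higher members, 6 to 27 lower members and 791 to 2692 genes called, against 3574 as reported. Each such fit leaves 1 group with a lone array, assumed to vary like the other group. With the replicate number as a block, 13 members were higher, 27 lower and 2997 genes called, with 10 members' calls lost. The ranking by mean log2 value was added after the data had been seen. Signs turned for Rnf10 (0.0081 with medians subtracted), Rnf41 (0.047 with probe sets averaged) and Trim35 (-0.00076 with quantile normalization), none called. The calls of all genes moved too. The share of all genes called was 27.7% as reported, 32.8% with medians subtracted, 33.8% with cyclic loess and 37.0% with quantile normalization. It was 36.5% with the intensity trend, 35.2% with 64 added and 20.0% with 1 added. With only probe sets above the Bacillus controls, 52.0% of the genes fitted and 61.1% of the members fitted were called. Why the counts moved was not tested. Signal over background limits the 32 members dim in both groups, for which a missing call says little.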
